A study of Mus musculus with 3 samples.

Results

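CELF1 binding positions were compared between cultured C2C12 myoblasts, a mouse line of proliferating muscle precursor cells, and adult muscle, the tissue that such precursors build. Genes were taken as bound when they carried at least 1 CLIP cluster, a short stretch of RNA that held more crosslinked reads than chance would place there, and each cluster was tied to its gene by the Entrez identifier deposited with it. Of 8037 genes with a cluster in the series, 6153 had one in C2C12 or muscle. Of these, 1942 were bound in both libraries, 812 in C2C12 alone and 3399 in muscle alone.

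The muscle came from 16-week-old mice of the C57/BL6 background, and C2C12 is an established line. No genetic change or treatment was named for either group. Frozen muscle was ground to powder before crosslinking at 254 nm, and clone 3B1, a monoclonal antibody to CELF1 (CUGBP1), was used for both. There was 1 library a side, so no difference below has a replicate check, and intervals are exact Clopper-Pearson 95% intervals that cover counting error only. Clusters of the same gene are also not independent of each other.

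CELF1 is an RNA-binding protein with RNA recognition motifs that favour stretches rich in G and U, above all those with UGU. In the nucleus it acts on splice site choice, and in the cytoplasm it binds 3' UTRs and can speed mRNA decay or alter translation. It is abundant in fetal muscle and heart, declines after birth, and is raised in myotonic dystrophy, where many transcripts return to fetal splice forms.

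The sequences below show what CELF1 was crosslinked to. They are stretches of at most 30 nt of the NCBIM37 (mm9) genome, read 5' to 3' on the transcribed strand, with every UGU in capitals. The first set lies inside positions shared by both libraries, in the 12 genes with the most shared positions. In each gene the stretch with the most UGU is shown, so the letters are a choice and not an average.
Mbnl1, chr3:60360459-60360488, plus strand, intron: uuauaauuggUGUGUGUGUGUGUGUGUGUu
Ext1, chr15:53014628-53014657, minus strand, intron: auauaUGUcUGUGUGUGUGUcUGUcUGUau
Celf2, chr2:6675457-6675475, minus strand, intron: uUGUUGUUGUUGUUGUUGU
Otud4, chr8:82201059-82201088, plus strand, 3' UTR: uuuuUGUuUGUuUGUuuuuUGUUGUuuUGU
Septin11, chr5:93602130-93602159, plus strand, 3' UTR: gcuUGUGUgagcuuuauuuUGUGUGUGUGU
Nucks1, chr1:133829979-133830008, plus strand, 3' UTR: UGUGUaaaaggUGUGUcugauuggacuUGU
Prkar1a, chr11:109529984-109530013, plus strand, 3' UTR: cuuuauUGUuuuuUGUuUGUGUGUGUGUGU
Trim35, chr14:66929839-66929868, plus strand, 3' UTR: aauuUGUGUgcaaguuuUGUGUggcUGUGU
Tnrc6b, chr15:80767418-80767447, plus strand, 3' UTR: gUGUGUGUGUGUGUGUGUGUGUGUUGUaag
Nufip2, chr11:77524579-77524608, plus strand, 3' UTR: gcgcgUGUcUGUGUGUcUGUGUcUGUGUGU
Zfp871, chr17:32906090-32906119, minus strand, beyond the annotated gene end: uaagcuugcUGUGUGUGUGUGUGUGUGUGU
Lnpep, chr17:17665056-17665085, minus strand, 3' UTR: uuuUGUuUGUuUGUuUGUuuuuuaauuUGU

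The second set lies in clusters of the 4 genes with the most clusters in C2C12 alone, chosen in the same way.
Hmga2, chr10:119886529-119886558, minus strand, intron: UGUGUGUGUcUGUGUGUcUGUGUcUGUcug
Diaph3, chr14:87302229-87302258, minus strand, intron: uaaaUGUgaauUGUuUGUuUGUuUGUuUGU
Gpc6, chr14:117608569-117608598, plus strand, intron: auauaUGUGUGUGUGUGUGUuuuagcucuu
Msn, chrX:93362365-93362394, plus strand, 3' UTR: ccUGUgauuugcaaagauggaauauUGUGU

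The last set lies in clusters of 3 of the genes with the most clusters in muscle alone.
Ttn, chr2:76686507-76686536, minus strand, intron: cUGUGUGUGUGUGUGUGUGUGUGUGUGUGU
Dmd, chrX:81290265-81290294, plus strand, intron: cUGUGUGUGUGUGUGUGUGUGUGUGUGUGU
Sox6, chr7:123120314-123120343, minus strand, intron: UGUGUUGUGUGUGUGUGUGUGUGUGUGUGU

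GU repeats stand in all 3 sets, and runs of UGU spaced by U stand in Otud4, Lnpep and Diaph3. Since each stretch is the richest in UGU among the clusters or shared positions of its gene, and was taken from 177 clusters in Ttn but from 8 in Msn, the sets are not to be compared by how much UGU they hold.

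The C2C12 list held 5115 clusters in 2754 genes and the muscle list 24844 clusters in 5341 genes. Clusters of C2C12 were also narrower, with a median width of 38 nt against 54 nt. Of C2C12 clusters, 61.2% were narrower than 40 nt, against 15.2% in muscle, and no cluster in either list was narrower than 35 nt. The study lists more collapsed, uniquely mapped reads for the myoblast library than for the muscle library, so fewer clusters did not go with fewer reads. No cluster carries a read number, so how strongly a site was bound cannot be given. A gene without a cluster may be unbound, weakly bound or little expressed, and these cannot be told apart.

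The labels were checked on marker genes. Of 15 skeletal muscle fibre markers, 13 carried clusters, all in muscle alone, with 135 clusters there and 0 in C2C12. Ryr1, the calcium release channel of the sarcoplasmic reticulum, had 49, Atp2a1, its calcium pump, 18, Myh4, a fast myosin heavy chain, 12, and Tnnt3, fast troponin T, 10. Of 11 myoblast markers, 5 carried clusters: Myod1, the master regulator of the myogenic programme, had 2 in C2C12 and 1 in muscle, Ncam1 had 4 and 0, Itga7 3 and 3, Met 1 and 6, and Des 0 and 2. Pax7 and Myf5, which mark satellite cells and early myoblasts, had none in either library. Of 14 heart markers, 4 had clusters, with 2 clusters in each library.

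Muscle is a tissue of several cell types, and their markers were also counted. Endothelial markers were met in muscle alone, with 24 clusters in 6 of 13 genes, led by Flt1 with 13 and Pecam1 with 5. Markers of smooth muscle and pericytes had 26 clusters in muscle and 4 in C2C12, in 5 of 10 genes. Fibroblast markers had 4 and 3 clusters, those of Schwann cells and nerve 3 and 3, those of macrophages and immune cells 3 and 0, and those of adipocytes 7 and 0. Muscle had 24844 clusters in all and C2C12 5115, so these counts alone do not set the libraries apart. At 0 clusters the interval for C2C12 reached 0.0721% of its clusters, while muscle was at 0.0966% (endothelial), 0.0282% (adipocyte) and 0.0121% (immune). No erythroid marker had a cluster in either library. In such bulk RNA, fewer cells of a type and less RNA per cell cannot be told apart, and the part of these cells in the genes bound in muscle alone was not tested.

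Over all clusters, UGU was present in 86.4% (85.4% to 87.3%) of C2C12 clusters and in 98.4% (98.2% to 98.5%) of muscle clusters. On the opposite strand UGU was found in 28.8% and 37.8% of the same stretches. Windows of the median width tiled over the bound genes held it in 58.5% (3' UTR) and 55.8% (intron) of 38 nt windows in genes bound in C2C12, and in 70.8% and 68.2% of 54 nt windows in genes bound in muscle. The gap between the libraries was largest among narrow clusters. At exactly 35 nt UGU was present in 77.9% (75.8% to 79.9%) in C2C12 and in 94.4% (92.7% to 95.9%) in muscle, at 36 to 39 nt in 85.8% and 96.7%, at 40 to 49 nt in 90.4% and 97.8%, at 50 to 59 nt in 95.5% and 98.8%, at 60 to 79 nt in 98.5% and 99.0%, and at 80 nt or more in 100% and 99.7%. Per 100 nt of cluster the order differed by part of the gene. In introns C2C12 held 9.46 UGU and muscle 11.5, and in 3' UTRs 6.54 and 5.64.

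Longer motifs of both kinds, GU repeats and U-spaced runs, were found in both libraries. The motif UGUGU, which contains UGU, was present in 33.5% of C2C12 and 45.3% of muscle clusters, and UUUGU in 32.6% and 44.0%. In 3' UTR windows UGUGU stood in 7.92% at 38 nt and 11.1% at 54 nt, and UUUGU in 9.69% and 13.3%. The GU-rich element UGUUUGUUUGU was present in 4.40% of C2C12 and 4.44% of muscle clusters, against 0.101% and 0.146% of 3' UTR windows and 0.126% and 0.190% of intron windows. The repeat UGUGUGUGUGU was present in 7.06% and 6.44%, against 0.289% and 0.360% of 3' UTR windows and 0.501% and 0.694% of intron windows. In muscle introns UGUGU was present in 57.3% of clusters and UUUGU in 47.0%. On the opposite strand neither of these 11 nt motifs passed 0.0587% of clusters in either library. Both 11 nt motifs were more frequent in intron clusters, at 6.19% and 8.97% in C2C12, than in 3' UTR clusters, at 1.84% and 4.21%.

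Genes bound in both libraries made up 70.5% (68.8% to 72.2%) of the genes bound in C2C12 and 36.4% (35.1% to 37.7%) of those bound in muscle. Over all 6153 genes, 31.6% were bound in both, 13.2% in C2C12 alone and 55.2% in muscle alone. These shares are the background for each gene group described here. The co-bound genes held 77.3% of C2C12 clusters (3955) and 48.6% of muscle clusters (12075).

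Genes with more clusters in one library were more often bound in the other. Of genes with 1 C2C12 cluster, 61.5% (59.2% to 63.9%) were bound in muscle, and of genes with 5 to 9, 89.5% (83.7% to 93.8%) were. Above that the groups were small, with 9 of 10 genes at 10 to 19 and 2 of 3 at 20 or more. In the other direction the share climbed from 22.4% (20.4% to 24.5%) of genes with 1 muscle cluster to 62.8% (54.3% to 70.6%) of those with at least 20. Genes bound in both were also longer, with a median of 55876 nt against 33408 nt for C2C12 alone and 31771 nt for muscle alone, and had longer annotated 3' UTRs, with medians of 2014 nt, 1206 nt and 1469.5 nt. Most genes bound in C2C12 alone rested on little: 636 of 812 (78.3%) had 1 cluster, and 68 had at least 3. Of genes bound in muscle alone, 37.5% had 1 cluster and 1458 had at least 3.

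**Figure D1:**
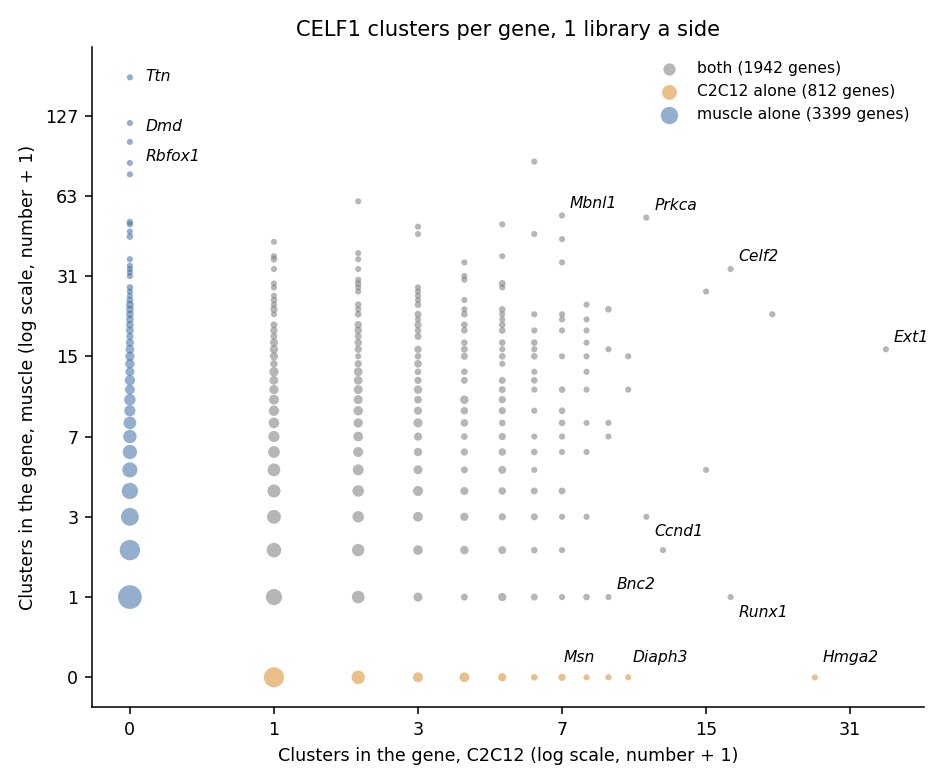
Clusters per gene in C2C12 (x axis) and in muscle (y axis), both as the number plus 1 on a log scale. Each point is a combination of numbers, with an area that grows with how many genes share it, and colours give the 3 classes. Ttn, Dmd and Rbfox1 stand high on the axis of 0 C2C12 clusters, Hmga2 stands far out on the axis of 0 muscle clusters, and Ext1 and Celf2 have many in both.

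The genes with the most C2C12 clusters were mostly long genes bound in their introns. Ext1, a glycosyltransferase of heparan sulfate synthesis, had 37 in C2C12 and 16 in muscle, all intronic. Hmga2, a chromatin protein of proliferating embryonic cells, had 26 and 0. Celf2, the close paralogue of Celf1, had 17 and 33. Runx1, a transcription factor present in myoblasts and regenerating muscle, had 17 and 1. Cdh13, a cadherin without a transmembrane part, had 15 and 27.

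Further genes with many C2C12 clusters split between both patterns. Asap1 had 15 clusters in C2C12 and 5 in muscle, Efl1 12 and 2, and Prkca, protein kinase C alpha, 11 and 52. Ccnd1, which encodes the G1 cyclin D1, had 11 and 3. It alone of the genes just named had no intron cluster, with 10 of its C2C12 clusters in the 3' UTR and 1 in a coding exon. Of the co-bound genes, 1378 had more muscle than C2C12 clusters, 367 had equal numbers and 197, Ext1, Runx1 and Ccnd1 among them, had more in C2C12. Across the co-bound genes the 2 numbers were weakly related (Spearman rho 0.26 over 1942 genes, a description, since both also ran with gene length, at 0.25 and 0.33).

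Positions were compared in the co-bound genes by an overlap of at least 1 bp on the same strand. Of the 3955 C2C12 clusters there, 1281 (32.4%, 30.9% to 33.9%) met a muscle cluster, and of the 12075 muscle clusters, 1314 (10.9%, 10.3% to 11.5%) met a C2C12 cluster. These formed 1235 shared positions in 881 of the 1942 genes (45.4%). In 648 genes there was 1 shared position, in 164 there were 2, and in 69 at least 3. The other 1061 genes had clusters in both libraries and none that overlapped. Overlaps were mostly close matches, with a median overlap of 37 nt, a median distance of 15 nt between midpoints, and the C2C12 cluster wholly inside the muscle cluster in 37.3% of 1360 overlapping pairs. No cluster of a gene bound in 1 library alone met a cluster of the other library listed under another gene.

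Positions were shared more often in 3' UTRs than in introns or coding exons. Of C2C12 clusters of co-bound genes in 3' UTRs, 61.4% (58.8% to 63.9%) met a muscle cluster, against 15.1% (13.6% to 16.6%) of those in introns and 18.5% (12.1% to 26.5%) of those in coding exons. The few C2C12 clusters in 5' UTRs, 7 of 11, met one at a share with a wide interval (30.8% to 89.1%). In the other direction the shares were 15.1% (14.2% to 16.0%) in 3' UTRs, 6.57% (5.92% to 7.27%) in introns and 5.07% (3.08% to 7.80%) in coding exons. A 3' UTR is far shorter than the introns of a gene, and the part of this length in the gap was not tested. Of the 837 genes with 3' UTR clusters in both libraries, 625 (74.7%) had a shared position, and of the other 1105 co-bound genes 256 (23.2%) did.

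Sharing also grew with the number of muscle clusters in the gene. In genes with 1 muscle cluster, 31.3% (24.9% to 38.3%) of 3' UTR clusters of C2C12 met it, and in genes with at least 20 the share was 83.6% (75.4% to 90.0%). For intron clusters the same shares were 5.19% (3.10% to 8.07%) and 25.3% (19.9% to 31.4%). At each number of muscle clusters, 3' UTR clusters were shared more often than intron clusters, with intervals that did not overlap.

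**Figure D2:**
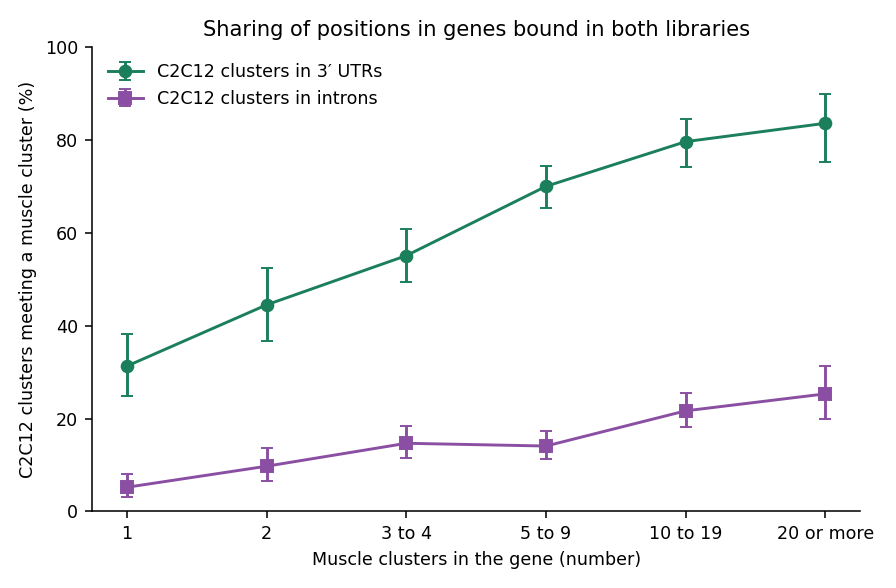
Share of C2C12 clusters that met a muscle cluster (y axis, percent) by the number of muscle clusters in the gene (x axis), for clusters in 3' UTRs and in introns of co-bound genes. Points are shares and bars are exact 95% intervals. The 3' UTR line runs from 31.3% to 83.6% and stays above the intron line, which runs from 5.19% to 25.3%.

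Wide C2C12 clusters were shared far more often than narrow ones. Of C2C12 clusters of 35 nt in co-bound genes, 17.95% (15.9% to 20.2%) met a muscle cluster, and of those of at least 80 nt, 83.6% (76.2% to 89.4%) did. The same order stood within 3' UTRs, from 40.3% (35% to 45.8%) at 35 nt to 89.1% (81.7% to 94.2%) at 80 nt or more, and the part of width itself in meeting another cluster was not tested. Without clusters narrower than 40 nt, an alternative chosen after seeing the data, 47.3% of C2C12 and 12.9% of muscle clusters of co-bound genes were shared.

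The C2C12 clusters that did not meet a muscle cluster lay at different distances from one in the 3' UTR and the intron. In 3' UTRs, 556 such clusters lay a median of 240 nt from the nearest muscle cluster of the gene, and 21.0% (17.7% to 24.7%) lay within 50 nt. In introns, 1966 lay a median of 8337 nt away, 2.29% (1.67% to 3.05%) within 50 nt and 45.7% (43.5% to 47.96%) more than 10000 nt.

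Shared and unshared C2C12 clusters also differed in letters. UGU was present in 95.2% (93.8% to 96.3%) of C2C12 clusters at shared positions, in 82.7% (81.2% to 84.1%) of the others in co-bound genes and in 85.0% (82.8% to 87.0%) of those in genes bound in C2C12 alone. Within 3' UTRs the first 2 shares were 94.7% (93.0% to 96.1%) and 80.6% (77.0% to 83.8%). UUUGU followed the same order, at 43.1%, 28.7% and 30.1%, and UGUGU at 42.6%, 29.6% and 32.3%. Shared clusters were also wider, with a median of 44 nt against 37 nt for both other classes. A wider cluster meets another more easily and has more room for UGU, so neither width nor the presence of UGU is independent of the overlap. Per 100 nt, UGU was at 8.62 in the shared clusters, against 7.54 in the unshared of co-bound genes and 8.63 in genes bound in C2C12 alone. In the same 3 classes of muscle, UGU was present in 99.0% (98.3% to 99.5%), 98.4% (98.1% to 98.6%) and 98.3% (98.04% to 98.5%). Shares so near 100% had little room to differ. The longer motifs were more frequent in the shared class there too, with UUUGU at 51.8%, 45.0% and 42.3%, and UGUGU at 49.8%, 45.2% and 45.0%. Median widths of these muscle classes were 66 nt, 53 nt and 54 nt. Along the 3' UTR the classes did not stand apart. The median position was 50.8% of the way from stop codon to end for shared C2C12 clusters, 48.6% for the unshared and 48.5% for genes bound in C2C12 alone.

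The heart library of the series was not used to form the classes. A heart cluster was met by 80.4% (78.1% to 82.5%) of C2C12 clusters at positions shared with muscle, by 20.6% (19.1% to 22.2%) of the unshared in co-bound genes and by 13.1% (11.2% to 15.2%) in genes bound in C2C12 alone. Within 3' UTRs these shares were 83.8%, 36.7% and 28.4%, and within introns 71.3%, 15.7% and 8.28%. The shared C2C12 clusters were wider (median 44 nt against 37 nt in both other classes), and a wider cluster also meets a heart cluster more easily. The part of width in these shares was not tested. The muscle classes lay closer together, at 81.5% (79.3% to 83.6%), 54.9% (53.97% to 55.9%) and 48.04% (47.2% to 48.9%). By gene, 93.8% of co-bound genes, 81.0% of those bound in muscle alone and 49.3% of those bound in C2C12 alone had a heart cluster.

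**Figure D3:**
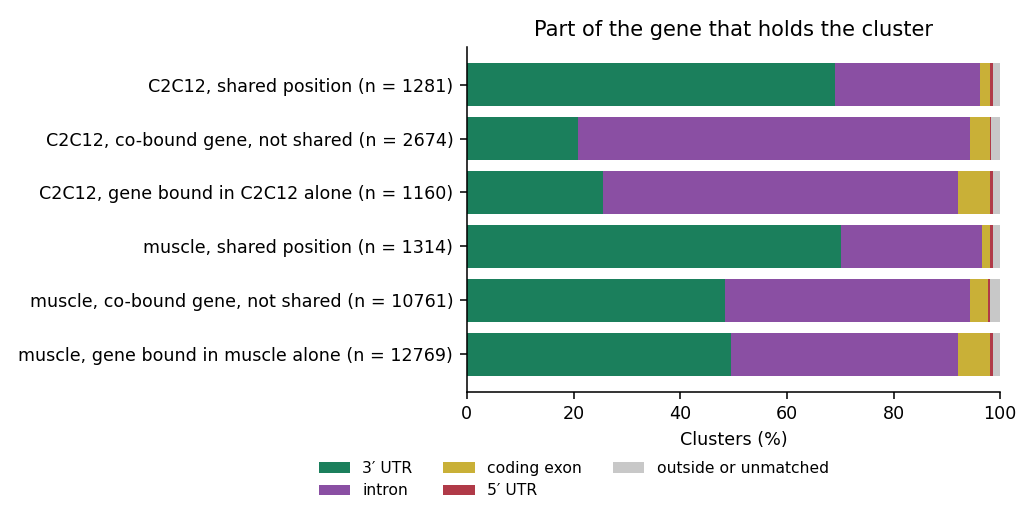
Part of the gene that holds the cluster midpoint, as a percent of the clusters (x axis) in 6 classes, 3 for each library. Shared positions are mostly in 3' UTRs in both libraries (69.0% and 70.2%), while C2C12 clusters outside shared positions are mostly in introns (73.5% and 66.6%).

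By part of the gene, 33.9% (32.6% to 35.3%) of C2C12 clusters and 50.1% (49.5% to 50.7%) of muscle clusters lay in 3' UTRs, and 60.4% (59.02% to 61.7%) and 43.2% (42.6% to 43.8%) in introns. Coding exons held 3.77% and 4.54% and 5' UTRs 0.352% and 0.523%. Within the co-bound genes the 3' UTR shares were 36.4% and 50.7%, so the gap was also present among genes bound in both. At matched width the gap was not the same throughout. At 35 nt the 3' UTR held 25.4% (23.4% to 27.6%) of C2C12 and 30.7% (27.6% to 33.9%) of muscle clusters, and at 36 to 39 nt 24.9% (22.7% to 27.2%) and 32.9% (31.2% to 34.7%). From 40 nt on the intervals overlapped, with 37.3% and 38.8% at 40 to 49 nt, 47.7% and 45.7% at 50 to 59 nt, 62.5% and 57.5% at 60 to 79 nt, and 80.8% and 78.8% at 80 nt or more. The 3' UTR share was thus higher in muscle among clusters under 40 nt, and in C2C12 the narrow clusters were the more numerous. Among clusters of 40 nt and wider, 47.7% and 53.3% were in 3' UTRs.

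The parts that held clusters often differed between the libraries. Of the 1942 co-bound genes, 416 had C2C12 clusters in introns and none in the 3' UTR, but muscle clusters in both parts. Of these, 136 had a shared position. Another 183 had C2C12 clusters in the 3' UTR and none in introns, but muscle clusters in both parts, and 135 of them had one. In 52.4% of co-bound genes C2C12 had 1 cluster, which can lie in 1 part only. Intron clusters without 3' UTR clusters in C2C12, and 3' UTR clusters without intron clusters in muscle, were found in 142 genes, 3 of them with a shared position. The reverse of the latter, 3' UTR without intron in C2C12 and intron without 3' UTR in muscle, was found in 26. In 381 genes both libraries had 3' UTR and no intron clusters, and 281 of these had a shared position. In 392 both had intron and no 3' UTR clusters, and 91 of these had one. Among the 180 genes with at least 4 clusters in each library, the share in the 3' UTR was higher in muscle in 113, higher in C2C12 in 28 and equal in 39, with a median of 52.3% in muscle and 25.0% in C2C12 and a median difference within a gene of 12.5 points.

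Genes at the ends of that range show what the shift looked like. Deptor, an inhibitor of mTOR, had 5 C2C12 clusters, all intronic, and 8 muscle clusters, 7 of them in the 3' UTR. Ptbp2, the neuronal polypyrimidine tract-binding protein, had 5 C2C12 clusters in introns and 7 muscle clusters with 6 in the 3' UTR. Kif21a, Arid1a and Sh3kbp1 had 4 C2C12 clusters each, with 0, 1 and 0 in the 3' UTR, against 5 of 6, 6 of 6 and 3 of 4 in muscle. In the other direction, Igfbp5, a secreted binder of insulin-like growth factors, had all 4 C2C12 clusters in the 3' UTR and 4 of 8 in muscle. Nedd4, a ubiquitin ligase, had 4 of 5 against 11 of 29, Vcl, the adhesion protein vinculin, 4 of 4 against 10 of 17, Septin11 7 of 7 against 12 of 19, and Gnaq 3 of 5 against 5 of 19.

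The genes with the most shared positions had 5 or 6 each. Mbnl1, the muscleblind splicing regulator that is sequestered in myotonic dystrophy, shared 6 positions, made of 6 of its 7 C2C12 clusters, out of 53 clusters in muscle. Ext1 shared 6 of 37 C2C12 clusters. Celf2 shared 6 positions, made of 7 of its 17 C2C12 clusters. In Otud4, a deubiquitinase, all 7 C2C12 clusters were in the 3' UTR and all met muscle clusters, of which there were 21. Nucks1, a nuclear phosphoprotein, shared 7 of 8 C2C12 clusters, and Trim35, a RING-domain ubiquitin ligase, and Septin11, a filament-forming GTPase, 6 of 7 each. Prkar1a, the regulatory subunit of protein kinase A, shared 7 of 8.

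The remaining genes of that group had 5 shared positions each. Tnrc6b, a partner of Argonaute in microRNA silencing, had 5 of 6 C2C12 clusters shared and 45 muscle clusters. Nufip2, which binds the fragile X protein, had 6 of 9 and 16, the zinc finger gene Zfp871 5 of 6 and 19, and the aminopeptidase Lnpep 5 of 5 and 15. In 10 of these 12 genes, all but Ext1 and Celf2, most C2C12 clusters met a muscle cluster. Over the co-bound genes, all C2C12 clusters were shared in 414. Among the 924 with at least 2 C2C12 clusters, all were shared in 95.

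**Figure D4:**
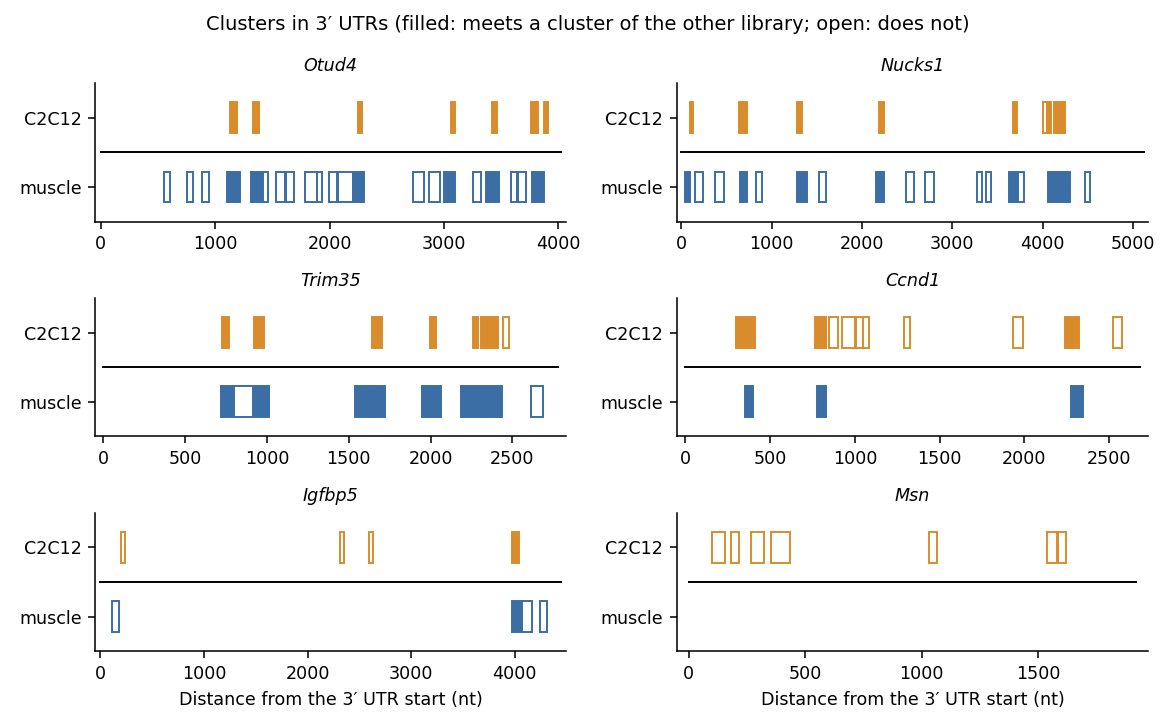
Clusters along the 3' UTRs of 6 genes, by distance from the 3' UTR start (x axis, nt), with C2C12 above and muscle below the line. Filled boxes meet a cluster of the other library and open boxes do not. In Otud4, Nucks1 and Trim35 muscle adds positions between shared ones, in Ccnd1 C2C12 does, Igfbp5 shares 1 position, and Msn has C2C12 clusters alone.

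Single 3' UTRs show both kinds of extra binding. In the 4020 nt 3' UTR of Otud4, muscle clusters stood from 582 to 3826 nt after the 3' UTR start, taken at their midpoints, and those of C2C12 from 1162 to 3893 nt. In Nucks1, C2C12 clusters at 109, 683, 1309, 2212 and 3695 nt lay on muscle clusters at 68, 691, 1336, 2202 and 3677 nt. In Ccnd1 the order was turned round. Its 3 muscle clusters, at 376, 804 and 2309 nt, all met C2C12 clusters, at 357, 797 and 2281 nt, and 7 more 3' UTR clusters stood in C2C12, at 874, 964, 1025, 1066, 1310, 1962 and 2550 nt. In Igfbp5 the libraries met at 4007 and 4023 nt, and the C2C12 clusters at 221, 2331 and 2611 nt had no partner.

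Other genes were bound in both libraries with no position in common. Runx1 had 17 C2C12 clusters, 16 in introns, and a single muscle cluster, also in an intron. Bnc2, a zinc finger protein of mesenchymal cells, had 9 and 1, the collagen receptor Ddr2 8 and 3, the vascular growth factor Angpt1 8 and 1, and Csgalnact1, an enzyme of chondroitin sulfate synthesis, 8 and 1. The junction scaffold Magi1 had 7 and 4, as had Mrtfa, a coactivator of serum response factor. Actn1, non-muscle alpha-actinin, had 7 and 2, with 5 of its C2C12 clusters in the 3' UTR and both muscle clusters in introns.

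Genes bound in C2C12 alone were led by Hmga2 with 26 clusters, 25 of them intronic. Diaph3, a formin that nucleates actin filaments, followed with 10 and Gpc6, a glypican, with 9, all intronic. Msn, which encodes moesin, a linker of actin and membrane, had 8, with 7 in the 3' UTR, the last of them 1601 nt after its start. Csf1, Glis3, Sema5a and Zfpm2 had 7 each, and Cdk6, a G1 kinase, and Myof, a ferlin of myoblast fusion, 6 each. Some of them were bound in heart, such as Zfpm2 with 49 clusters, Gpc6 with 18 and Msn with 9, while Diaph3, Glis3 and Sema5a had 0 there.

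Genes bound in muscle alone were led by giant genes of the fibre. Ttn, the molecular spring of the sarcomere, had 177 clusters, 92 in introns, 79 in coding exons and 6 in the 3' UTR. Dmd, dystrophin, had 119, and Rbfox1, a splicing regulator of mature muscle and neurons, 101, of which 81 were intronic. Sox6, a repressor of slow fibre genes, had 84, the nuclear receptor Rora 76, Neb, the thin filament ruler nebulin, 50, Zbtb16 50 and Ryr1 49. Eif4g3 had 46, Kcnma1 and Nfia 44 each and Pde4dip 36. Neb had 0 clusters in heart and Ryr1 2, while Ttn had 184 and Dmd 150.

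Gene groups divided in different ways, and counts are given beside the background of 31.6% in both, 13.2% in C2C12 alone and 55.2% in muscle alone. The groups were chosen by function, and a member without a cluster in either library is left out of the shares. The share bound in both lay near the background in excitation-contraction coupling (30.3%), myotonic dystrophy (30.8%), immediate early (33.3%), cell cycle (34.8%) and dystrophin complex genes (36.8%). Their shares in muscle alone were 69.7%, 69.2%, 66.7%, 26.1% and 57.9%. The 13 functional groups are given from those of the fibre to those of the dividing cell.

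Of 33 sarcomere genes with a cluster, 27 (81.8%) were bound in muscle alone, 6 in both and 0 in C2C12 alone. Beyond Ttn and Neb, Myom1, a cross-linker of the M band, had 27 muscle clusters, and Ldb3, a Z-disc PDZ-LIM protein, 19. The 6 co-bound genes included Pdlim5, with 7 C2C12 and 43 muscle clusters, Palld, with 4 and 30, and the tropomyosins Tpm1, Tpm2 and Tpm3, which are also expressed outside fibres, with 1 and 7, 2 and 4, and 1 and 1. Both C2C12 clusters of Tpm2 were shared. The other co-bound gene was Myom2, with 1 and 20, and its C2C12 cluster was shared.

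Excitation-contraction coupling gave 23 genes in muscle alone, 10 in both and 0 in C2C12 alone, of 33. Cacna2d1, a calcium channel subunit, had 3 and 48 clusters, Asph 2 and 29, Camk2a, a calmodulin kinase, 0 and 24 and Jph1, which ties the sarcoplasmic reticulum to the T-tubule, 0 and 23. Atp2a2, the calcium pump of slow and non-muscle cells, was co-bound with 4 and 15, whereas Atp2a1 was not. Clcn1, the muscle chloride channel, had 8 clusters in muscle and none in C2C12, and Kcnj2, an inward rectifier, 10 and none.

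Of 36 energy metabolism genes, 30 (83.3%) were bound in muscle alone, 6 in both and 0 in C2C12 alone. Prkaa2, a catalytic subunit of AMP-activated kinase, had 33 muscle clusters, 30 of them in the 3' UTR. Phka1, of phosphorylase kinase, had 33 and also 2 in C2C12, and Phkb 25 with 1 in C2C12. The group had 342 clusters in muscle and 9 in C2C12.

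The dystrophin complex and the neuromuscular junction had 19 genes with clusters, 11 in muscle alone, 7 in both and 1, Agrn, the nerve-derived organiser of the synapse, in C2C12 alone, with 1 cluster. Ank3 had 2 and 60, Dtna 0 and 24 and Utrn, the dystrophin relative of immature fibres, 6 and 9. Of 26 genes listed for missplicing in myotonic dystrophy, 18 were in muscle alone, 8 in both and 0 in C2C12 alone. Missplicing of the members was not checked here. Mbnl2 had 2 and 30 clusters, and Bin1, which shapes T-tubules, 0 and 17.

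Myogenic regulators were more often bound in both, at 11 of 18 (61.1%), with 6 in muscle alone and Id2, an inhibitor of Myod1 action, in C2C12 alone with 1 cluster. Tcf4, Tcf12 and Tcf3, the E-proteins that pair with Myod1, had 5 and 37, 6 and 16, and 2 and 1 clusters. Nfib had 4 and 31, Tead1 7 and 22, and Eya4 4 and 22. Mef2a and Mef2d were bound in both, with 2 and 17 and with 2 and 9, and Mef2c in muscle alone with 16. The single muscle cluster of Myod1 met neither of its 2 C2C12 clusters, although all 3 lay in the 3' UTR.

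RNA-binding and splicing regulators had 57 genes with clusters, 30 (52.6%) in both, 22 in muscle alone and 5 in C2C12 alone. Celf1 itself was co-bound, with 5 and 22 clusters and 3 shared positions. Tnrc6b, Celf2 and Mbnl1 are given above, Rbfox2 had 9 and 23, and Khsrp, a decay factor of AU-rich mRNAs, 7 and 3. Rbfox1 was in muscle alone and Rbfox2 in both. The genes in C2C12 alone were Hnrnpl with 3 clusters and Mbnl3, Zfp36l2, Tra2b and Hnrnpa1 with 1 each.

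Microtubule and motor genes were co-bound in 14 of 25, with Kif1b, a kinesin, at 3 and 45, Dst at 4 and 35, Hook3, a dynein adaptor, at 1 and 33 and Map4 and Map3k20 at 3 and 28 and 2 and 28. The tubulin genes Tuba1a and Tubb5 were in C2C12 alone, with 1 and 4 clusters. Growth factor, TGF-beta and Notch signalling genes were co-bound in 19 of 34, in muscle alone in 14 and in C2C12 alone in 1, Tgfb3, with 1 cluster. The adaptor Gab1 had 3 and 27, Irs1, of insulin signalling, 5 and 20 the receptor Bmpr1a 2 and 20 and the receptor Tgfbr1 3 and 14. Of 12 immediate early and GU-rich-element mRNAs, 4 were bound in both, among them the kinase Sgk1 with 1 and 12, Fosl2 with 4 and 6 and Jun with 1 and 1, and 8 in muscle alone, among them Klf9 with 5, Mcl1 with 4 and Fos with 2. In these 4 co-bound genes, 7 of the 8 C2C12 clusters were shared.

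**Figure D5:**
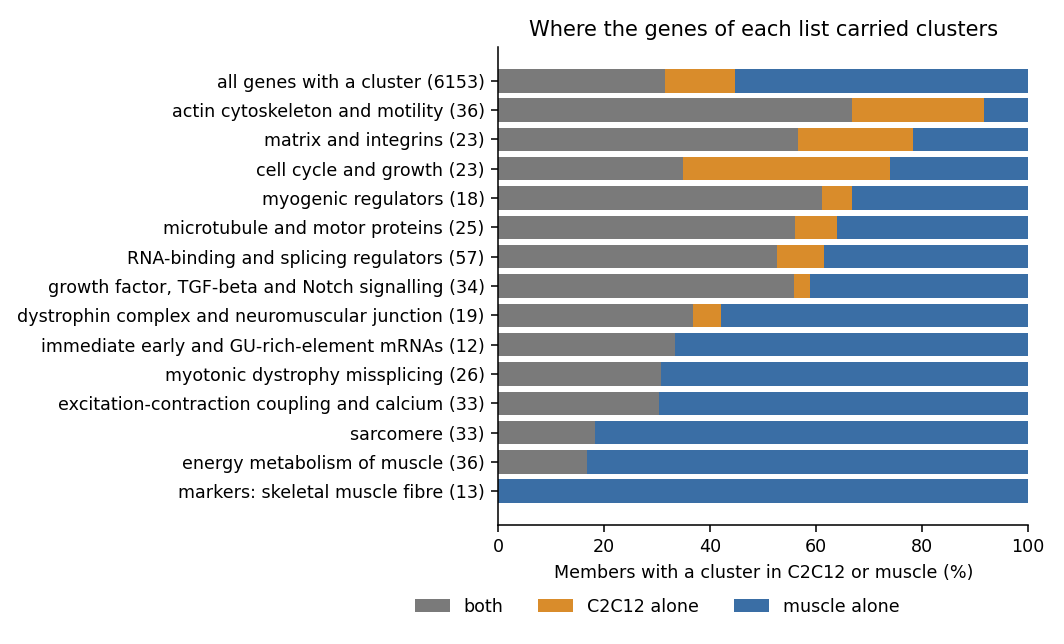
Members of the 13 functional groups and of the fibre markers that were bound in both libraries, in C2C12 alone or in muscle alone, as a percent (x axis) of the members with a cluster in either, whose number stands in brackets. The top bar gives all 6153 genes. Among the lists plotted, sarcomere, energy metabolism and fibre marker genes lie furthest to muscle alone, and actin, matrix and cell cycle genes furthest to the other classes.

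Genes of the actin cytoskeleton and cell motility stood at the other end. Of 36 with clusters, 24 (66.7%) were bound in both, 9 (25.0%) in C2C12 alone and 3 in muscle alone, and the group had 102 clusters in C2C12 and 147 in muscle. Myh9, non-muscle myosin, had 9 and 7, Cdc42, a small GTPase of cell polarity, 6 and 12, Amotl1 5 and 28, and Vcl 4 and 17, with all 4 shared. The genes in C2C12 alone were Diaph3, Msn, Pls3 with 4 clusters, Zyx with 2, and Actg1, Ezr, Myh10, Marcksl1 and Rhoa with 1 each. Capza1, Cfl1 and Diaph1 were in muscle alone, with 5, 1 and 6.

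Matrix and integrin genes were bound in both in 13 of 23, in C2C12 alone in 5 and in muscle alone in 5. Nid1, a basement membrane linker, had 5 and 7 clusters, Timp3, an inhibitor of matrix proteases, 0 and 11, Lamc1 3 and 9, and Itgav and Timp2 had 9 each in muscle with 1 and 2 in C2C12. Those in C2C12 alone were Fn1, fibronectin, with 3, Thbs1 with 2 and Col1a2, Col3a1 and Col5a3 with 1 each.

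Cell cycle and growth genes had the highest share in C2C12 alone of the 13 groups, 9 of 23 (39.1%), with 8 in both and 6 in muscle alone, and had 80 clusters in C2C12 against 71 in muscle. Of the 80, 26 lay in Hmga2, without which muscle had the higher number. As a share of all clusters, the group with Hmga2 held 1.56% (1.24% to 1.94%) in C2C12 and 0.286% (0.223% to 0.360%) in muscle. Besides Hmga2 and Cdk6, the 9 were Top2a, the topoisomerase of dividing cells, with 4 clusters, Cdk2 with 2, and Ccnb1, Mcm2, Mcm3, Mcm6 and Smc4 with 1 each. Cbx5, a heterochromatin protein, was co-bound with 8 and 19. The cell cycle inhibitors Cdkn1a and Cdkn1b were in muscle alone, with 2 each in the 3' UTR. So were Ncl with 3 clusters, Ccnd3 with 2, and Cdk1 and Mcm4 with 1 each.

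Many of these calls in C2C12 rested on narrow clusters. Without clusters under 40 nt, the background was 19.1% in both, 5.998% in C2C12 alone and 75.0% in muscle alone of 5118 genes. Actin genes were then bound in both in 19 of 31 and in C2C12 alone in 5, cell cycle genes in C2C12 alone in 4 of 18, matrix genes in C2C12 alone in 2 of 19, and sarcomere, coupling and metabolism genes in 0. The setting removed 61.2% of C2C12 and 15.2% of muscle clusters, so the groups at 0 had little room to change.

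The study's own examples fell in both classes. Myadm, a myeloid-associated membrane protein, had 7 clusters in each library and 4 shared positions, with 5 and 6 of the clusters in its 3' UTR. Cpe, a peptidase of prohormone processing, had 1 C2C12 cluster, which met a muscle cluster, of 9. Cnih4 and Sobp had 1 intronic C2C12 cluster each and 6 and 7 muscle clusters, with no shared position, and Tmed2, a cargo receptor of the early secretory pathway, had 1 muscle cluster and none in C2C12.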

How the data were processed

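CELF1 CLIP-seq libraries of C2C12 myoblasts and adult muscle were used, with 1 sample each. As the study's methods state, identical reads were collapsed by the authors, adapters were trimmed and reads were mapped to mm9 and splice junctions with Bowtie and TopHat (versions not given in the sources used here), with unique matches kept. Clusters were called by the authors in each library from windows of 30 nt with a Poisson test whose rate was set from each gene's expression and the length of its pre-mRNA. The files the authors deposited list start, end, strand and gene of each cluster, with no read count, and a column that is 1e-06 throughout, whose meaning is not given and which was not used. Read depth per cluster is therefore unknown.

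Parts were set by the cluster midpoint on GENCODE vM1 (NCBIM37), in the order 3' UTR, coding exon, 5' UTR, intron. Of 6153 gene identifiers, 6146 had a symbol in a RefSeq table (a later assembly, hence used for symbols alone) and 6101 (99.2%) matched an annotated gene. Intron windows were taken every 2000 nt. Programs were Python 3.11.15, pandas 2.3.3, scipy 1.17.1, pysam 0.24.0 and samtools 1.23.1. The overlap count was tested on simulated clusters. The comparison, the named genes and the 24 gene lists were chosen with earlier results of these data known. Genes named were the 12 with the most shared positions, the 10 and 12 with the most clusters in C2C12 or muscle alone, the 8 co-bound with the most C2C12 clusters and none shared, the 10 with the most C2C12 clusters, the 5 with the largest difference in 3' UTR share in each direction, up to 4 members with the most clusters per list with those in C2C12 alone, and the study's examples. Some genes and 1 sequence that these rules select are not reported here. Other list members, the markers and the genes drawn along their 3' UTRs were picked after values were seen. No test between conditions was possible with 1 library a side.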

Additional observations from a re-analysis of the deposited data

How the results depend on the processing

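No paired analysis was possible because each side has 1 library. Of 71 values under other settings, 34 stayed within 1.5 times the count or within the interval of the share, and 37 did not. With at least 2 clusters needed in each library, 807 genes were bound in both. Genes with at least 2 clusters in 1 library and none in the other numbered 176 for C2C12 and 2126 for muscle. With 3' UTR clusters alone, 837 were bound in both and 303 in C2C12 alone, and 64.6% of C2C12 and 22.1% of muscle clusters were shared. With intron clusters alone, 17.3% and 7.41% were shared, in 279 genes. An overlap of 10 bp gave 10.3% for muscle, 50% of both clusters 19.6% and 6.43%, midpoints within 20 nt 21.1% and 6.92%, and clusters set to 40 nt 29.0% and 9.49%. Genes with 2 clusters in both gave 35.3% and 13.4%, and 523 genes with a shared position. In co-bound genes 36.4% and 50.7% of clusters lay in 3' UTRs. UGU was present in 79.7% and 92.7% of central 30 nt stretches, 94.1% and 99.1% with 10 nt added on both sides, and 88.9% and 97.8% in 3' UTRs. Without clusters under 40 nt, chosen after seeing the data, 975 genes were bound in both and 307 in C2C12 alone, 540 had a shared position, 47.3% and 12.9% of clusters were shared, 47.7% and 53.3% lay in 3' UTRs, and 93.9% and 98.8% held UGU. No cluster was under 30 nt, so that setting could change nothing, and its values are counted among the 34. In each setting muscle had more genes bound alone, C2C12 clusters were shared more often, and muscle had the higher share in 3' UTRs and with UGU. The first 2 orders were set by list length and are no support. Muscle had more bound genes (5341 against 2754), and near-equal numbers met from each side (1281 of 3955 C2C12 and 1314 of 12075 muscle clusters). No setting matched clusters by width. At matched widths from 50 nt on, the 3' UTR share was higher in C2C12, with intervals that overlapped. The cause of the shifts was not tested.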

Other observations

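Chromosome 15 held 8.45% (7.70% to 9.24%) of C2C12 clusters, 432 in 159 genes, and 4.16% (3.91% to 4.41%) of muscle clusters. On every other chromosome except Y, which had 15 muscle clusters and 0 in C2C12, the share in C2C12 divided by that in muscle lay between 0.778 and 1.16. Of the chromosome 15 clusters in C2C12, 304 were on the minus strand, and 37 lay in Ext1. Without chromosome 15, 1837 genes were bound in both and 758 in C2C12 alone, and 32.7% of C2C12 clusters in co-bound genes met a muscle cluster. Over all chromosomes 56.7% of C2C12 and 48.96% of muscle clusters were on the minus strand. The cause was not tested.

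Some stretches are listed under several genes, 10 in C2C12 and 27 in muscle. Without them 1912 genes were bound in both, 811 in C2C12 alone and 3393 in muscle alone.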
